A study of Macaca mulatta with 23 samples.

Results

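The change with time and an IgG1 control antibody was described in sorted CD8+ effector memory T cells (TEM) of rhesus macaques (Macaca mulatta). It rests on 12 of the 23 arrays of the study, which were chosen by their treatment label. They are 6 arrays after and 6 arrays before the IgG1 control antibody, 1 of each from every one of 6 animals. The other 11 arrays came from 6 animals given an antibody against interleukin-15 (IL-15), 6 after and 5 before it. The cells were sort-purified from blood mononuclear cells, the sources used here give neither the interval between the times nor the dose, sex or age of the animals, and no untreated animals were followed. The change after IgG1 therefore joins the passage of time, the antibody and the handling of the animals, which cannot be told apart in this arm.

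Effector memory CD8+ T cells circulate through blood and tissues and can kill infected cells quickly with perforin and granzymes stored in granules. They carry chemokine receptors for inflamed tissue and lack the lymph node homing receptors of naive and central memory cells. Their upkeep depends in part on IL-15, and a control antibody is given so that the effects of injection and time can be seen apart from those of blocking the cytokine.

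The labelled cell type was checked on the 12 arrays by its markers. CD8A, CD3D, CD3G, CD2, PRF1, GZMB, NKG7 and CCL5 were detected on 12 of 12 arrays, whereas CD8B was detected on 4, and the CD3E probe on 0. Of the naive and central memory markers, CCR7 was detected on 0 arrays, CD28 on 2, LEF1 on 9 and IL7R on 12. CD4 and FOXP3 were detected on 0 arrays, while the monocyte marker CD14 and the red cell gene HBB were detected on 12. The array carries human probes, so a probe that is dim in macaque RNA does not show that its gene was silent.

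The arrays of this arm detected 12182 to 14132 of 47230 probes, and their number limits the precision. Sorted cells had a median of 101500 after and 296500 before IgG1. Per animal the log2 ratio averaged -1.21 ± 1.52 (SD, n = 6), which did not pass an exact two-sided sign-flip permutation test (p = 0.1875, smallest possible 0.03125), with fewer cells after IgG1 in 4 of 6 animals. On the first principal component the array of animal 3 before IgG1 stood at 15.2, apart from the other 5 at -34.6 to -22.9, and it had the highest 28S ribosomal RNA signal of the arm, a log2 level of 12.03. Where leaving out animal 3 ended or gave the call of a gene chosen by the naming rule, that is said beside the gene. For genes named outside that rule it is not given.

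After IgG1 the genes with lower levels included those of perforin, the chemokine receptor CX3CR1, the chemokine CCL5, the granule protein NKG7 and the T cell surface proteins CD8A and CD2. Those with higher levels included the immediate early gene IER2, the calcium pump ATP2A3, the transcription factor ZNF683, and genes of ribosomal proteins and of small nucleolar RNA hosts. Of 9190 genes tested, 201 (2.19%) had a limma adjusted p under 0.05 and are called here, 66 higher (0.718%) and 135 lower (1.47%). The median log2 change was 0.90 in the called higher genes, -0.81 in the called lower genes and -0.04 in all genes. Of the called genes 58 higher and 97 lower ones moved the same way in 6 of 6 animals, against 986 of all genes (10.7%). Calling favours genes whose animals agree, and the largest rises and falls named below were taken only from such genes. The arrays after and before IgG1 did not overlap for 7 of the higher and 10 of the lower genes, whereas over all genes 0.74% were without overlap. Of the called lower genes 24 were undetected on all 6 arrays after IgG1 (17.8%, against 2.37% of all genes) and 0 on all 6 arrays before it. On all 12 arrays 56.3% of the called lower genes were detected, against 55.8% of all genes.

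The count depends on single animals: it was 0 without animal 1 (1198 genes with an unadjusted p under 0.05), 16 without animal 2, 30 without animal 4 and 367 without animal 3. It was 24 in a fit of the 12 arrays alone. The fit of the 12 arrays alone gives the same changes as the main fit, so it could not alter a sign. When log2 cell number entered as a covariate the count was 0 (limma; 777 with an unadjusted p under 0.05), although all 201 genes kept their sign in that fit. Of the 45 named genes that were called, 14 passed in the fit of the 12 arrays alone, among them IER2, PRF1, CX3CR1, CCL5, CD8A, RBL2, ATP2A3, SCARNA9L and TXNIP, whereas NKG7, CD2, TRIM22, HLA-DRA, CHST2, BST2 and ZNF683 did not. Without animal 1 the log2 changes of IER2, PRF1, CX3CR1, CCL5 and CD8A were 1.84, -1.24, -1.12, -1.10 and -0.70 (limma adjusted p = 0.0701, 0.107, 0.0701, 0.0701 and 0.0832). Without animal 3 they were 2.45, -1.65, -1.60, -1.10 and -0.85, each called, and 181 of the 201 calls held. With 75th percentile scaling 71 genes were higher and 279 lower, so that 79.7% of the calls were lower, against 67.2% here.

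**Figure D1:**
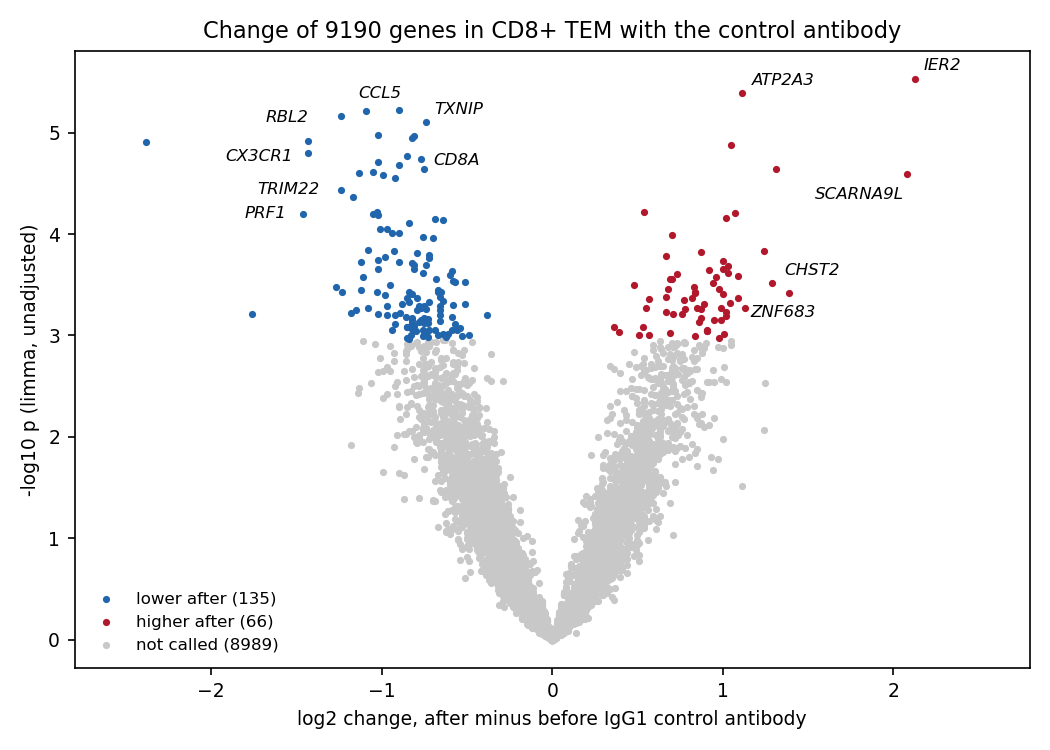
Each point is 1 of 9190 genes, with the log2 change after minus before the IgG1 control antibody on the x axis and -log10 of the unadjusted limma p on the y axis. The 135 called lower genes (blue) and 66 called higher genes (red) lie above the uncalled genes (grey), with IER2 and ATP2A3 at the top right.

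Cytotoxic molecules came first among the effector genes. PRF1, the gene of perforin, which opens pores in target cells, had log2 intensities of 8.18 to 10.42 after IgG1 (median 9.63) and of 10.35 to 11.69 before it (median 10.84). The groups overlapped only by the value of animal 5 after IgG1, which was just above that of animal 3 before it. PRF1 fell by 1.46 on the log2 scale (SE 0.29, limma adjusted p = 0.0185), or 2.74-fold, in 6 of 6 animals. NKG7, a membrane protein of cytotoxic granules, lay between 6.60 and 9.70 after IgG1 (median 8.87) and between 8.88 and 10.03 before it (median 9.72). Animal 2 after IgG1 was far below the rest, and animal 1 hardly differed between the times. NKG7 fell by 0.97 (SE 0.23, limma adjusted p = 0.0392) in 6 of 6 animals, and its call was lost without animal 3 (adjusted p = 0.0579) and in the fit of the 12 arrays alone (adjusted p = 0.0730).

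The granzymes, the proteases that perforin lets into target cells, did not pass. GZMB averaged 8.64 ± 0.94 after and 8.87 ± 0.53 before IgG1 (SD, n = 6), a log2 change of -0.23 (limma adjusted p = 0.655). GZMA had a change of -0.46, GZMK of -0.27 and GZMH of -0.04, and the granule peptide GNLY one of -0.06. Of 19 cytotoxic granule genes measured, 2 were called lower and 0 higher (10.5%, against 1.47% of all genes called lower). Of their changes 18 were below 0, with a median of -0.26, while 55.2% of all genes had changes below 0. The exception was UNC13D, which primes granules for release, at 0.40, and with 75th percentile scaling 3 of the 19 were above 0. This list overlaps one from an earlier analysis of these samples that had shown the same direction, so it is no independent evidence. The other lists were also chosen with earlier results of these data known, so their shares of called genes are descriptions.

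Chemokine and adhesion genes were called in both directions. CX3CR1, the fractalkine receptor of cytotoxic effector cells, had log2 intensities of 8.59 to 10.36 after IgG1 (median 9.45) and of 9.36 to 11.59 before it (median 11.32). Before IgG1 animal 3 was lowest and animal 1 highest, and animal 1 had the largest fall. CX3CR1 fell by 1.43 (SE 0.25, limma adjusted p = 0.0102), or 2.70-fold, in 6 of 6 animals, and its other probe changed by -0.82 (SE 0.24). CCL5, a chemokine that memory CD8+ T cells store and release, lay between 8.97 and 10.58 after IgG1 (median 9.89) and between 10.13 and 11.57 before it (median 11.05). The groups overlapped, but each animal was lower after IgG1.

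CCL5 fell by 1.09 (SE 0.18, limma adjusted p = 0.0102) in 6 of 6 animals, while on a dimmer CCL5 probe the change was 0.54 (SE 0.19), the other way. CHST2, a sulfotransferase that modifies selectin ligands, was the list's called higher gene, at 5.92 to 8.89 after IgG1 (median 7.67) and 5.65 to 7.50 before it (median 6.25). It rose by 1.29 (SE 0.30, limma adjusted p = 0.0349) in 6 of 6 animals. Of 15 measured genes of this list 1 was higher and 2 were lower (20%, against 2.19% of all genes called). The list's median change was -0.28.

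None of 16 natural killer receptor genes was called, with a median change of -0.03. KLRF1, an activating receptor, had a change of -1.13 (SE 0.34, limma adjusted p = 0.0695) and was lower in 6 of 6 animals. SLAMF6, a receptor of the SLAM family, had one of -0.83 (adjusted p = 0.0828) and was called without animal 3 (adjusted p = 0.0390).

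**Figure D2:**
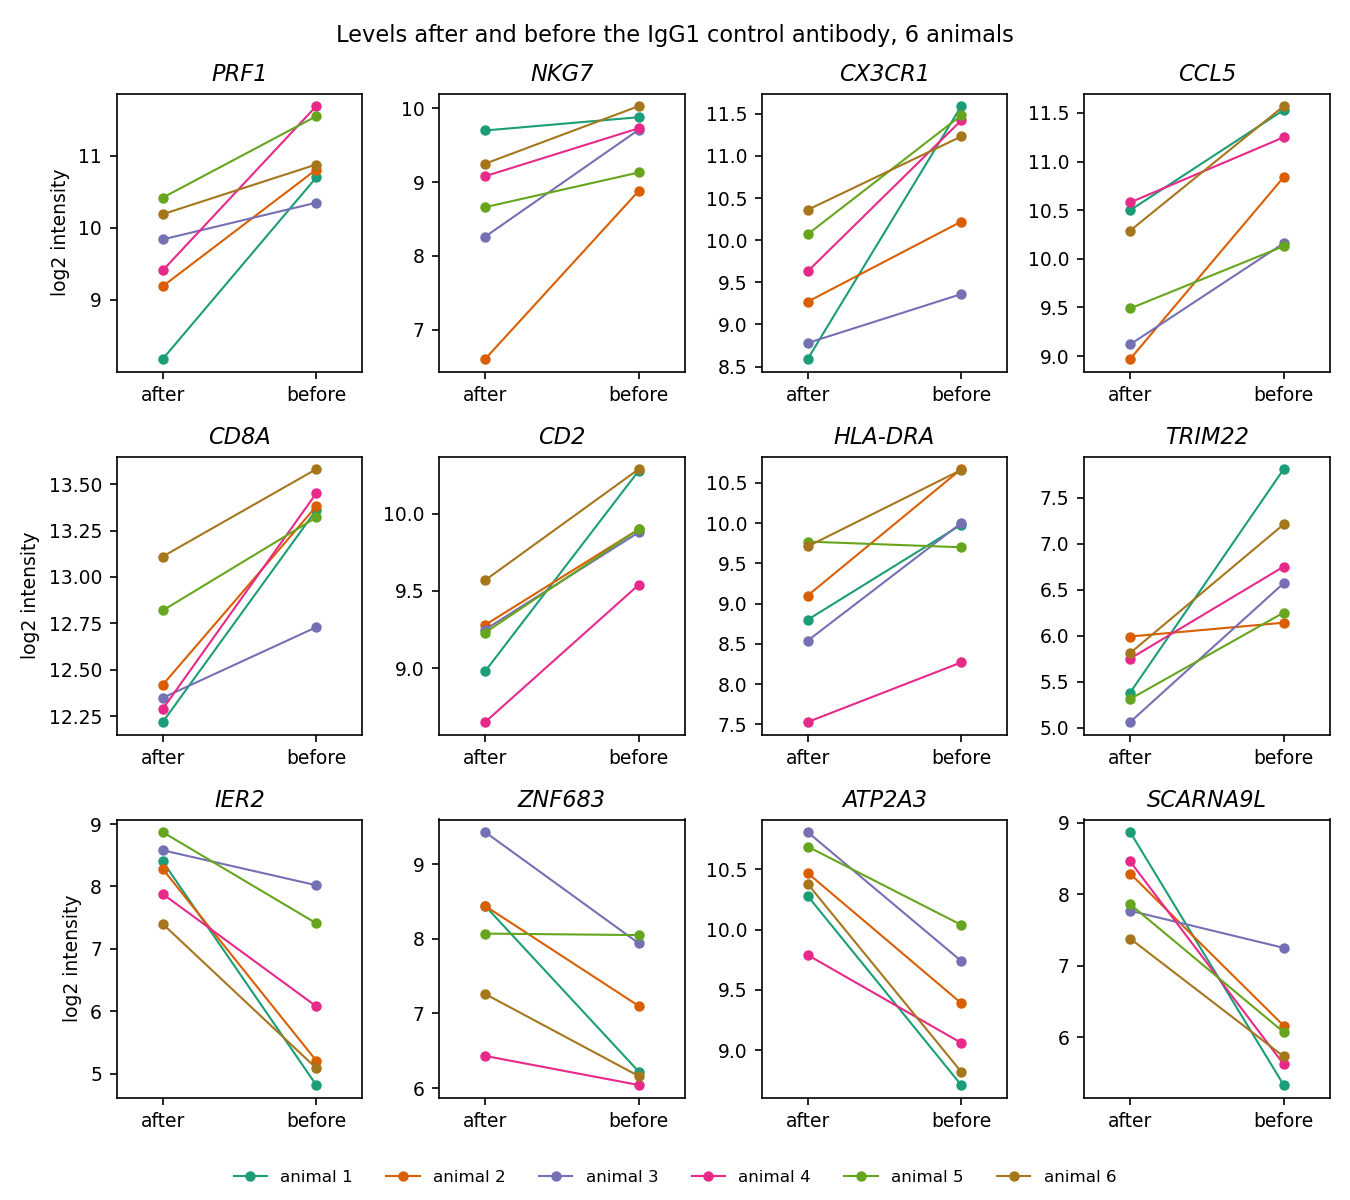
Log2 intensities of 12 genes after (left) and before (right) the IgG1 control antibody, with a line for each of 6 animals and a y axis of its own for each gene. PRF1, NKG7, CX3CR1, CCL5, CD8A, CD2 and TRIM22 were lower after IgG1 in 6 of 6 animals and HLA-DRA in 5 of 6, while IER2, ZNF683, ATP2A3 and SCARNA9L were higher in 6 of 6.

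Among the genes of the T cell receptor and CD8, CD8A, the alpha chain of the CD8 coreceptor, was at 12.22 to 13.11 after IgG1 (median 12.38) and 12.73 to 13.58 before it (median 13.37). The array of animal 3 before IgG1 was below the other arrays of that time. CD8A fell by 0.77 (SE 0.14, limma adjusted p = 0.0104), or 1.71-fold, in 6 of 6 animals, and its other 2 probes changed by -0.63 (SE 0.15) and 0.01 (SE 0.21). CD2, an adhesion and costimulatory molecule of T cells, was at 8.65 to 9.57 after IgG1 (median 9.24) and 9.54 to 10.29 before it (median 9.90). The groups met only at animal 6 after and animal 4 before IgG1. CD2 fell by 0.81 (SE 0.18, limma adjusted p = 0.0325) in 6 of 6 animals.

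Of 20 genes of this list these 2 were lower and 0 higher (10%, against 1.47% of all genes called lower). In the list 15 changes were below 0, against 55.2% of all genes, and the list's median was -0.13. CD8B, the beta chain of the coreceptor, averaged 4.61 ± 0.21 after and 5.01 ± 0.53 before IgG1 (SD, n = 6), near the limit of detection, with a change of -0.40 (limma adjusted p = 0.254). In these bulk samples, fewer cells with a transcript and less of it per cell cannot be told apart.

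HLA-DRA encodes a chain of HLA-DR, a class II molecule that activated T cells of primates display. It lay between 7.53 and 9.77 after IgG1 (median 8.95) and between 8.27 and 10.67 before it (median 9.99). Animal 4 had the lowest value at both times, and animal 5 did not fall. HLA-DRA fell by 0.97 (SE 0.20, limma adjusted p = 0.0214), or 1.96-fold, in 5 of 6 animals, and another probe changed by -0.34 (SE 0.18). It was the called gene of 11 measured in the MHC class II list (9.09%, against 1.47% of all genes called lower). There 10 changes were below 0, against 55.2% of all genes, and the list's median was -0.19.

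The MHC class I list holds class I chains and the antigen processing machinery. Of its 18 changes 14 were below 0, against 55.2% of all genes, and its median was -0.29. In this list 1 gene was called (5.56%, against 1.47% of all genes called lower). Its called gene, the nonclassical class I gene HLA-F, averaged 12.29 ± 0.19 after and 12.88 ± 0.22 before IgG1 (SD, n = 6). It fell by 0.58 (SE 0.13, limma adjusted p = 0.0349) in 6 of 6 animals, and its other probe changed by -0.84 (SE 0.28). MHC genes share sequence, so probes may read related genes.

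Of 13 costimulatory and inhibitory receptor genes, 1 was called lower (7.69%, against 1.47% of all genes): TNFRSF18, which encodes the costimulatory receptor GITR. It averaged 5.31 ± 0.72 after and 6.39 ± 1.14 before IgG1 (SD, n = 6), a fall of 1.08 (limma adjusted p = 0.0392), in 4 of 6 animals, and was not called without animal 3 (adjusted p = 0.0582). None of 17 genes of common gamma chain cytokine signalling passed. IL2RB, the beta chain that IL-15 and IL-2 receptors share, averaged 6.68 ± 0.65 after and 7.39 ± 0.32 before IgG1, with a change of -0.71 (limma adjusted p = 0.0695). The gamma chain gene IL2RG had a change of -0.60 (adjusted p = 0.227), and SOCS3, a feedback inhibitor of cytokine signalling, one of -0.46 (adjusted p = 0.124).

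Likewise 0 of 17 apoptosis regulators were called. BCL2, which protects lymphocytes from death, averaged 6.82 ± 0.81 after and 7.51 ± 0.67 before IgG1 (SD, n = 6), with a change of -0.69 (SE 0.20, limma adjusted p = 0.0614). Its other probes changed by 0.16, -0.31 and 0.22. DIABLO, a mitochondrial protein that relieves the block on caspases, had a change of 0.54 (adjusted p = 0.0913).

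IER2, an immediate early gene that is switched on within minutes by growth factors and stress, showed the largest rise of any gene. Its log2 intensity was 7.40 to 8.87 after IgG1 (median 8.34) and 4.82 to 8.02 before it (median 5.65). After IgG1 the animals lay close together, while before it animals 1, 2 and 6 were near the lowest level and animals 3 and 5 well above them. IER2 rose by 2.13 (SE 0.33, limma adjusted p = 0.0102), or 4.38-fold, in 6 of 6 animals, by 3.58 in animal 1 and 0.57 in animal 3. It was past the threshold in 19 of 21 alternative settings. The other immediate early and stress genes did not follow it: 1 of 35 was called (2.86%, against 2.19% of all genes), and the list's median change was 0.10.

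Of 29 transcription factor genes of T cell differentiation, ZNF683 alone was called (3.45% of the list, against 2.19% of all genes). ZNF683 encodes HOBIT, a factor of effector and tissue-resident T cells. It lay between 6.43 and 9.43 after IgG1 (median 8.26) and between 6.04 and 8.05 before it (median 6.66). Animal 4 was lowest at both times, and animal 5 was nearly level. ZNF683 rose by 1.09 (SE 0.26, limma adjusted p = 0.0376), or 2.13-fold, in 6 of 6 animals, and passed in 10 of 21 alternative settings, though not without animal 3 (adjusted p = 0.0509).

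The T-box factors of effector cells did not pass. TBX21 had a change of 0.18 (limma adjusted p = 0.694) and EOMES one of 0.47 (adjusted p = 0.183). None of 8 naive and central memory genes was called. The change was above 0 for 7 of 8 (median 0.16), against 44.8% of all genes. Among them the actin crosslinker ACTN1 had a change of 0.72 (adjusted p = 0.156) and LEF1, a factor of naive T cells, one of 0.42 (adjusted p = 0.242).

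RBL2, also called p130, a pocket protein that holds resting cells out of the cycle, lay between 6.14 and 7.93 after IgG1 (median 7.04) and between 7.33 and 9.26 before it (median 8.16). Each animal was lower after IgG1, though the ranges overlapped. RBL2 fell by 1.24 (SE 0.20, limma adjusted p = 0.0102), or 2.36-fold, in 6 of 6 animals. It was the called gene of 14 measured quiescence and pocket protein genes (7.14%, against 1.47% of all genes called lower). The list's median change was -0.17, and 13 changes were below 0, against 55.2% of all genes. Of 38 cell cycle genes 0 were called, with a median of 0.01. The anaphase activator CDC20 had a change of 0.97 (adjusted p = 0.147) and the cycle factor E2F1 one of 0.68 (adjusted p = 0.121).

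Histone genes H4C12 and H4C3, which encode the core histone H4, were called higher. They were 2 of 14 histone genes (14.3%, against 0.718% of all genes called higher). The list's median change was 0.19. H4C12 averaged 7.84 ± 0.81 after and 6.88 ± 0.68 before IgG1 (SD, n = 6) and rose by 0.96 (SE 0.22, limma adjusted p = 0.0340). H4C3 rose by 0.54 (SE 0.11, adjusted p = 0.0185). Both were higher in 6 of 6 animals. Copies of histone genes are nearly alike, and the probes may not tell them apart.

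Of the antiviral restriction factors, 1 gene was called lower and 1 higher. TRIM22, an interferon-induced ubiquitin ligase that restricts retroviruses, was at 5.06 to 5.99 after IgG1 (median 5.57) and 6.14 to 7.81 before it (median 6.66). The groups did not overlap. TRIM22 fell by 1.24 (SE 0.23, limma adjusted p = 0.0135), or 2.36-fold, in 6 of 6 animals. BST2, or tetherin, which holds budding virus to the cell surface, was at 11.09 to 11.72 after IgG1 (median 11.21) and 9.26 to 11.20 before it (median 10.47). Only the array of animal 3 before IgG1 reached the range of the arrays after it.

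BST2 rose by 0.87 (SE 0.19, limma adjusted p = 0.0291) in 6 of 6 animals. BST2 and TRIM22 were the 2 called of 20 restriction factor genes (10%, against 2.19% of all genes). The list's median change of -0.11 turned to 0.03 when detection on all arrays was required. Of 19 type I interferon response genes 0 were called, with a median of -0.06. With 75th percentile scaling that median was 0.03, and with detection on all arrays, which left 8 of them, 0.22, each with 1 gene called higher. ISG15, a ubiquitin-like protein induced by interferon, averaged 9.41 ± 1.05 after and 8.58 ± 1.10 before IgG1, a change of 0.83 (limma adjusted p = 0.0573) in 6 of 6 animals, and animal 3 was highest at both times. Without animal 3 ISG15 had a change of 0.99 and was called (adjusted p = 0.0343).

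Of the lists in the plot of list changes, calcium handling had the highest share of called genes, 5 of 19 (26.3%, against 2.19% of all genes), with a median change of -0.06. Like the others, this list was chosen with earlier results of these data known, so its share and rank are a description. ATP2A3, the SERCA3 pump that moves calcium from the cytosol into the endoplasmic reticulum, was at 9.79 to 10.81 after IgG1 (median 10.43) and 8.71 to 10.04 before it (median 9.23). Animal 4 after IgG1 was the array that fell into the earlier range. ATP2A3 rose by 1.11 (SE 0.18, limma adjusted p = 0.0102), or 2.16-fold, in 6 of 6 animals, while a dimmer probe of the gene changed by -0.38 (SE 0.17).

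CAMK4, a calmodulin-dependent kinase of T cell activation, rose by 0.84 (SE 0.20, limma adjusted p = 0.0367) and the calcium-binding protein S100A6 by 0.70 (SE 0.16, adjusted p = 0.0342). Both were higher in all 6 animals. S100A10, which binds annexin A2, was lower in 6 of 6 animals and fell by 0.76 (SE 0.16, adjusted p = 0.0231), and its other, dimmer probe changed by -0.03. The plasma membrane calcium pump ATP2B4 fell by 0.85 (SE 0.22, adjusted p = 0.0452) in 5 of 6. The called members thus include a pump into the reticulum that rose and a pump out of the cell that fell.

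**Figure D3:**
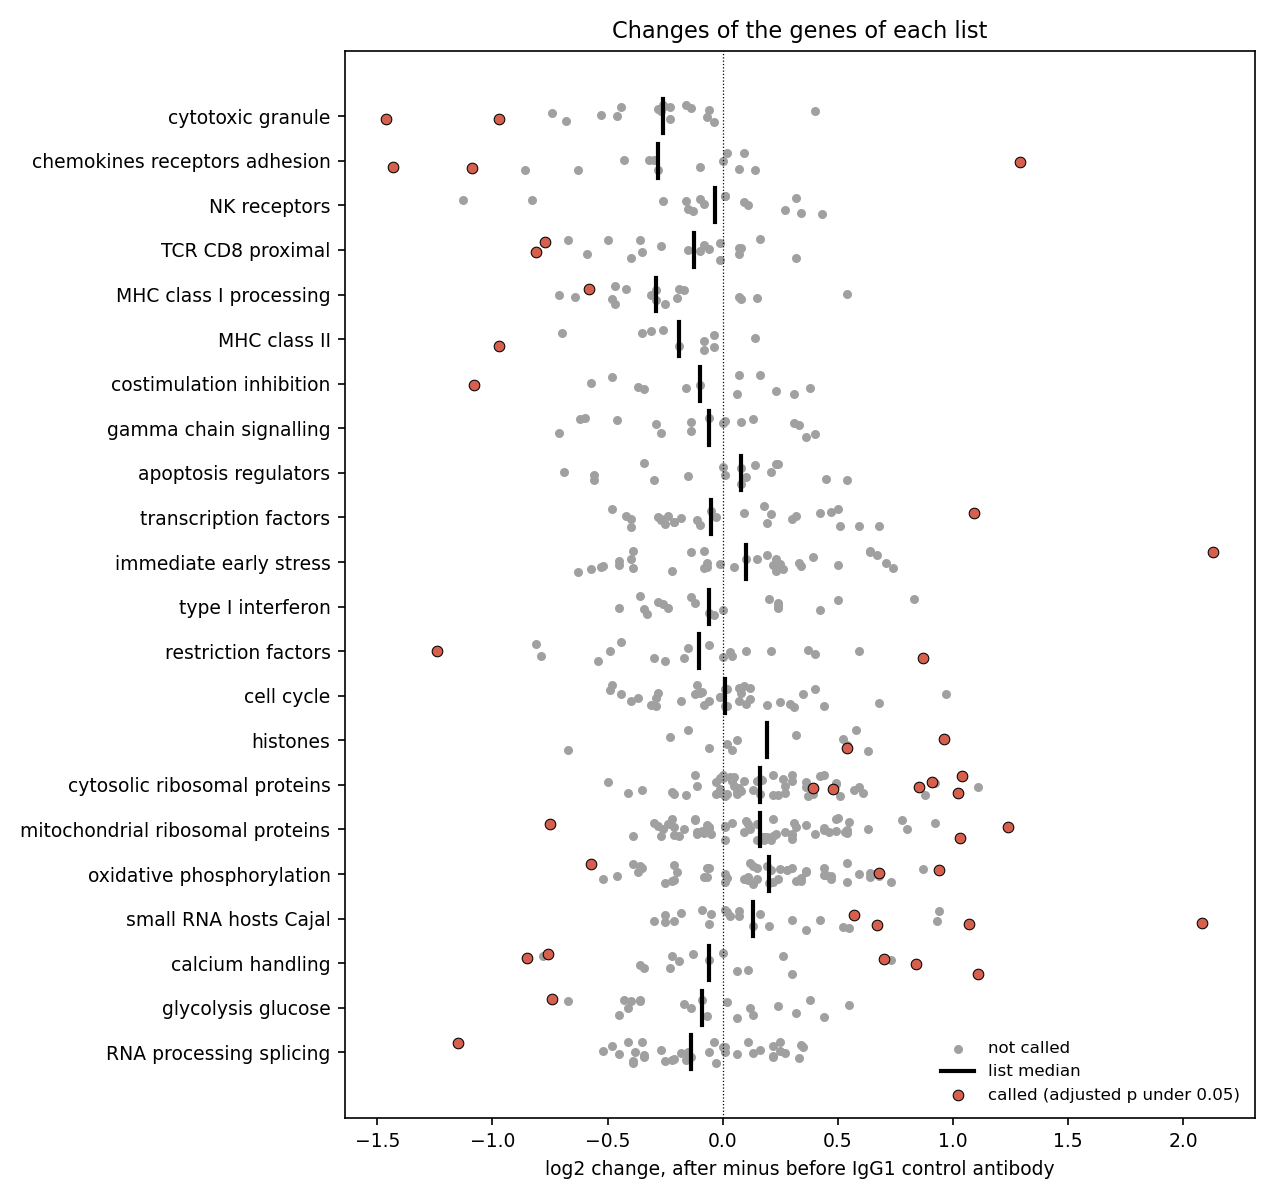
Log2 change after minus before the IgG1 control antibody (x axis) of each measured gene of 22 lists (rows), with called genes in red, other genes in grey and the list median as a black bar. Called genes lay below 0 in the cytotoxic and T cell receptor lists and above 0 in the cytosolic ribosomal protein and small RNA host lists, and list medians stayed between -0.29 and 0.20.

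Genes of cytosolic ribosomal proteins were called in 1 direction, 6 higher and 0 lower of 63 (9.52%, against 0.718% of all genes called higher). Of their changes 49 were above 0, with a median of 0.16, while 44.8% of all genes had changes above 0. They were RPS28, RPL35, RPS15A, RPS13, RPL41 and RPL17. RPS28, of the small subunit, was at 7.91 to 9.02 after IgG1 (median 8.44) and 7.00 to 7.90 before it (median 7.31), without overlap. It rose by 1.04 (SE 0.25, limma adjusted p = 0.0392) in 6 of 6 animals. RPL35, of the large subunit, rose by 1.02 (SE 0.25), RPS13 by 0.85 (SE 0.21) and RPL41 by 0.48 (SE 0.11), the last in 5 of 6 animals. Ribosomal protein genes have many processed copies in the genome, and probes may read them too.

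Of 64 mitochondrial ribosomal protein genes 2 were higher and 1 lower (4.69%, against 2.19% of all genes called). The list's median change of 0.16 was 0.01 with 75th percentile scaling. In 6 of 6 animals MRPS21 rose, by 1.24 (SE 0.27, limma adjusted p = 0.0291), and so did MRPL53, by 1.03 (SE 0.23, adjusted p = 0.0314). MRPL13 was detected on 0 of 6 arrays after and 6 of 6 before IgG1. Counted against the lowest detected signal, it was lower by a factor of at least 1.36. Its limma adjusted p of 0.0104 is that of the fitted change, which uses the undetected values, and not of this bound. Of 57 oxidative phosphorylation genes 2 were higher and 1 lower (5.26%, against 2.19% of all genes called), and the list's median was 0.20. UQCRH, of complex III, rose by 0.94 and NDUFA1, of complex I, by 0.68, whereas ATP5F1A, the alpha subunit of the ATP synthase, fell by 0.57, each in 6 of 6 animals. Other probes of UQCRH and ATP5F1A changed by -0.16 and -0.02.

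SCARNA9L, a small RNA of the Cajal body, the nuclear site where splicing RNAs are modified, was at 7.38 to 8.87 after IgG1 (median 8.07) and 5.33 to 7.25 before it (median 5.90). The groups did not overlap, and the array of animal 3 before IgG1 was closest to the later range. SCARNA9L rose by 2.08 (SE 0.38, limma adjusted p = 0.0104), or 4.22-fold, in 6 of 6 animals. The host genes of small nucleolar RNAs SNHG6, SNHG8 and SNHG5 rose by 1.07, 0.67 and 0.57 (adjusted p = 0.0185, 0.0305 and 0.0475), each in 6 of 6 animals, and SNHG5 was past the threshold in 5 of 21 alternative settings. In all 4 of 27 genes of this list were higher and 0 lower (14.8%, against 0.718% of all genes called higher), with a median change of 0.13.

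TXNIP, which limits glucose uptake and binds thioredoxin, was at 11.58 to 12.46 after IgG1 (median 12.05) and 12.22 to 13.28 before it (median 12.89). The ranges overlapped, and each animal was lower after IgG1. TXNIP fell by 0.74 (SE 0.12, limma adjusted p = 0.0102) in 6 of 6 animals. It was the called gene of 21 in the list of glycolysis and glucose genes (4.76%, against 1.47% of all genes called lower). Of 39 RNA processing and splicing genes 1 was called (2.56%, against 2.19% of all genes). ZFC3H1, a scaffold that targets nuclear RNA to the exosome, fell by 1.15 (SE 0.28, adjusted p = 0.0395). Of 27 ubiquitin and proteasome genes 0 were called, and the proteasome ATPase PSMC1 had a change of 0.54 (adjusted p = 0.0616).

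The remaining large rises that held in 6 of 6 animals were those of the zinc finger gene ZNF563 (1.31, SE 0.24), ARMC5 (1.09, SE 0.24) and MCM3AP (1.05, SE 0.18), which encodes a factor of messenger RNA export. The remaining large falls were those of LOC644936 (-1.76, SE 0.43), ENPP4 (-1.27), RAB11FIP1, an adaptor of recycling endosomes (-1.18), and the dopamine receptor gene DRD3 (-1.13). The log2 level of LOC644936 ranged from 9.04 to 12.96 after and 11.78 to 13.83 before IgG1. Its changes were -3.66 and -4.48 in animals 1 and 4, -1.2 in animal 2, and -0.26, -0.59 and -0.34 in animals 3, 5 and 6. CFAP210 was called lower and was detected on 0 of 6 arrays after and 4 of 6 before IgG1. In animals 3 and 5 it was undetected at both times, with changes of -0.07 and -0.24. Its fall in 6 of 6 animals thus rests in part on values not above background, and no bound on its size is given. Its limma adjusted p of 0.0104 is that of the fitted change, which uses the undetected values. On second probes the change was 0.21 for RAB11FIP1 and 0.04 for DRD3. PHC1, a polycomb protein gene named here after its values were seen, had log2 levels of 4.40 to 4.89 after IgG1, where 1 of 6 arrays detected it, and of 4.40 to 8.67 before it, where 5 of 6 did. It was called lower and lay lower in 5 of 6 animals, but since most levels after IgG1 were not above background, the size of its fall is not given.

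A list of the 14-3-3 adaptor family, proteins that bind phosphorylated partners, was chosen after the values were seen, so its counts are a description. Of 5 genes measured 3 were called lower and 0 higher (60%, against 1.47% of all genes called lower). The list's median change was -0.66. YWHAZ fell by 1.05 (SE 0.19), YWHAQ by 0.75 (SE 0.19) and YWHAB by 0.66 (SE 0.16), each in 6 of 6 animals.

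None of the lists of other cell types had a called gene. NK cell markers, of which 8 of 12 were measured, had a median change of -0.29, and their summed log2 level was 10.34 to 11.13 after and 10.55 to 11.46 before IgG1. For B cell markers (6 of 13 measured) the sums were 7.39 to 8.80 after and 7.41 to 8.76 before IgG1, and for monocyte and dendritic cell markers (7 of 17) 11.04 to 11.89 and 10.72 to 11.39. Platelet and red cell markers (6 of 13) summed to 10.29 to 13.75 after and 10.00 to 14.23 before it, and neutrophil markers (2 of 10) to 5.94 to 7.09 and 6.47 to 7.20. The CD4 and regulatory T cell list (3 of 10) and the gamma delta and MAIT list (3 of 11) summed to 13.74 to 13.96 and 13.75 to 13.96 after and 13.75 to 13.89 and 13.75 to 13.90 before IgG1, set by a bright CCR6 probe. Among single markers, KIR3DL1, an inhibitory receptor of NK cells and some T cells, had a change of -0.76 (limma adjusted p = 0.107). The red cell gene HBB had one of 0.85 (adjusted p = 0.0713). The B cell receptor gene CD79B had a change of 1.25 (SE 0.37, limma adjusted p = 0.0659), and its second probe one of 0.87 (SE 0.22). Its changes were 2.72, 2.23 and 2.99 in animals 1, 2 and 4, and 0.15, 0.10 and -0.67 in animals 3, 5 and 6, and without animal 3 it was called (1.47, adjusted p = 0.0410). Of the same list, CD79A had a change of -0.19 (limma adjusted p = 0.643). The median over the 6 B cell markers measured was 0.08, with 5 changes above 0. The part of other cells in the changes above was not tested.

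Among the called genes the size of the changes differed between the animals. A shared direction is part of what gets a gene called, and over all genes 10.7% moved the same way in 6 of 6 animals. The median log2 change of the 66 called higher genes was 1.27, 1.02 and 1.15 in animals 1, 2 and 4, and 0.47, 0.47 and 0.57 in animals 3, 5 and 6. For the 135 called lower genes it was -1.27, -1.0 and -1.12 in animals 1, 2 and 4, and -0.38, -0.50 and -0.59 in animals 3, 5 and 6. Animals 1, 2 and 4 thus had larger changes than the others in both directions, and the genes were called on these same arrays. Over all genes, 1191, 902 and 1437 genes moved by over 1 log2 unit in these 3 animals, against 437, 145 and 214 in animals 3, 5 and 6.

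The number of sorted cells differed between the same animals. After IgG1 animals 1, 2 and 4 gave 20.0%, 20.0% and 13.2% of their earlier cells, whereas animals 3, 5 and 6 gave 67.8%, 106% and 173%. The 28S ribosomal RNA signal changed by 4.10 and 3.67 in animals 1 and 4, by -0.50 in animal 2, and by -3.62, -0.86 and -1.93 in animals 3, 5 and 6. In the fit with cell number as a covariate IER2 had a change of 1.96, PRF1 of -0.95, CX3CR1 of -1.13, CCL5 of -1.02 and CD8A of -0.56 (limma adjusted p = 0.258, 0.433, 0.361, 0.258 and 0.383). Of the 45 named genes that were called 11 shrank by over 1.5 times in this fit, among them PRF1, LOC644936 (-0.69), ZFC3H1 (-0.52), MRPS21 (0.68), CHST2 (0.73), RAB11FIP1 (-0.66), RPL41 (0.25) and S100A6 (0.40). The part of cell number in the changes was not tested beyond this fit.

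**Figure D4:**
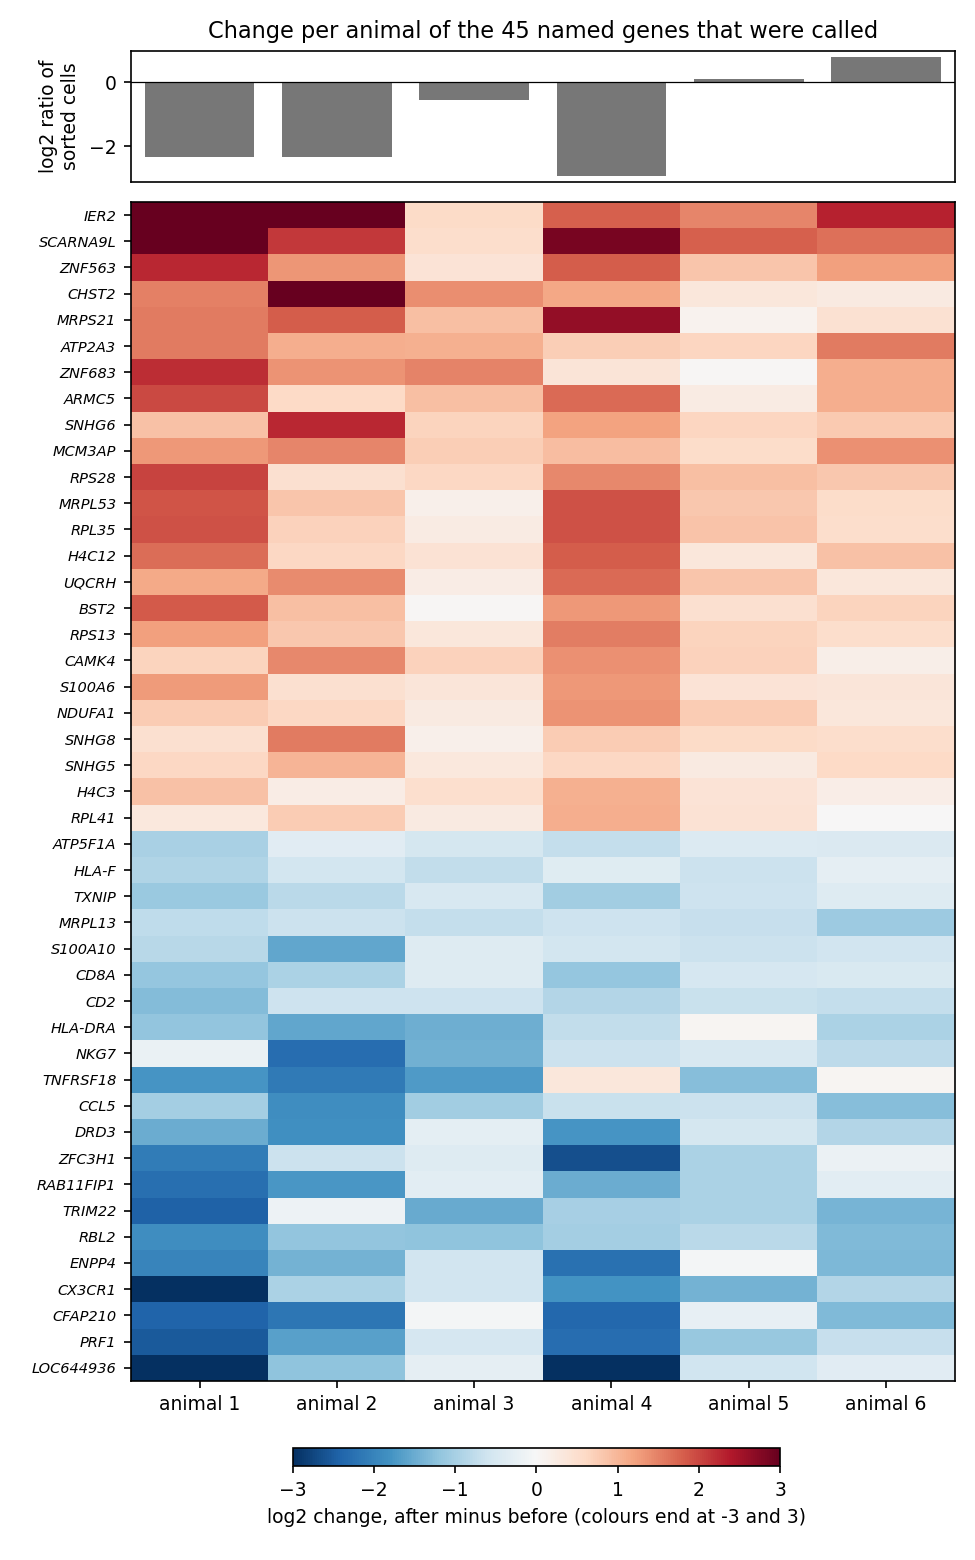
The top bars give the log2 ratio of sorted cells, after over before the IgG1 control antibody, in each animal, and the colours below give the log2 change of the 45 named genes that were called (rows) in the same animal (columns), red for higher and blue for lower after IgG1. Animals 1, 2 and 4, with log2 cell ratios of -2.32, -2.32 and -2.92, show the strongest colours.

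The IgG1 change was set against the change in the other animals, which were given anti-IL-15, to see where it differed. Sorted cells were fewer after than before anti-IL-15 in each of its 5 paired animals. They went from 274000 to 42000, 219000 to 35000, 112000 to 20000, 259000 to 109000 and 260000 to 107000. The part of cell number in what the arms share, or in how they differ, was not tested. Of the 201 genes called with IgG1, 161 (80.1%) had the same sign of change with anti-IL-15, against 5681 of 9190 genes (61.8%). CX3CR1, TXNIP, H4C12, H4C3 and SERPINA1 were called in the same direction in both arms, as was a probe annotated to a microRNA gene. CX3CR1 changed by -1.43 with IgG1 and -1.26 with anti-IL-15, a difference of -0.17 (SE 0.37, limma adjusted p = 0.922). TXNIP changed by -0.74 and -0.59 (difference -0.15, SE 0.18), and SERPINA1, a protease inhibitor, by -1.11 and -1.27 (difference 0.17, SE 0.37). PRF1 changed by -1.46 with IgG1 and by -1.08 with anti-IL-15, a difference of -0.37 (SE 0.43, adjusted p = 0.831).

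In the difference of the changes, IgG1 minus anti-IL-15, 1 gene of 9190 was called (0.0109%), and 891 (9.70%) had an unadjusted p under 0.05. HLA-DRA fell by 0.97 with IgG1, where it averaged 8.91 after and 9.88 before, and rose by 1.13 with anti-IL-15 over the 5 paired animals, where it averaged 10.65 on 6 arrays after and 9.58 on 5 arrays before. The difference was -2.10 (SE 0.29, limma adjusted p = 0.00614). Without the replicate block that pairs the arrays of an animal, its adjusted p was 0.636 and the count 0.

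Other differences were large without passing over all genes. CHST2 changed by 1.29 with IgG1 and -0.94 with anti-IL-15 (difference 2.24, SE 0.44, limma adjusted p = 0.105), and BCL2 by -0.69 and -2.21 (difference 1.52, SE 0.29, adjusted p = 0.105). CCL5 changed by -1.09 with IgG1 and 0.02 with anti-IL-15 (difference -1.11, SE 0.26, adjusted p = 0.292), and ATP2A3 by 1.11 and -0.03 (difference 1.14, SE 0.26, adjusted p = 0.292). For IER2 the change was 2.13 with IgG1 and 0.75 with anti-IL-15 (difference 1.38, SE 0.49, adjusted p = 0.384). Its mean level was 8.24 after and 6.11 before IgG1, and 8.39 on 6 arrays after and 7.74 on 5 arrays before anti-IL-15, so the arms stood closer after treatment than before it.

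**Figure D5:**
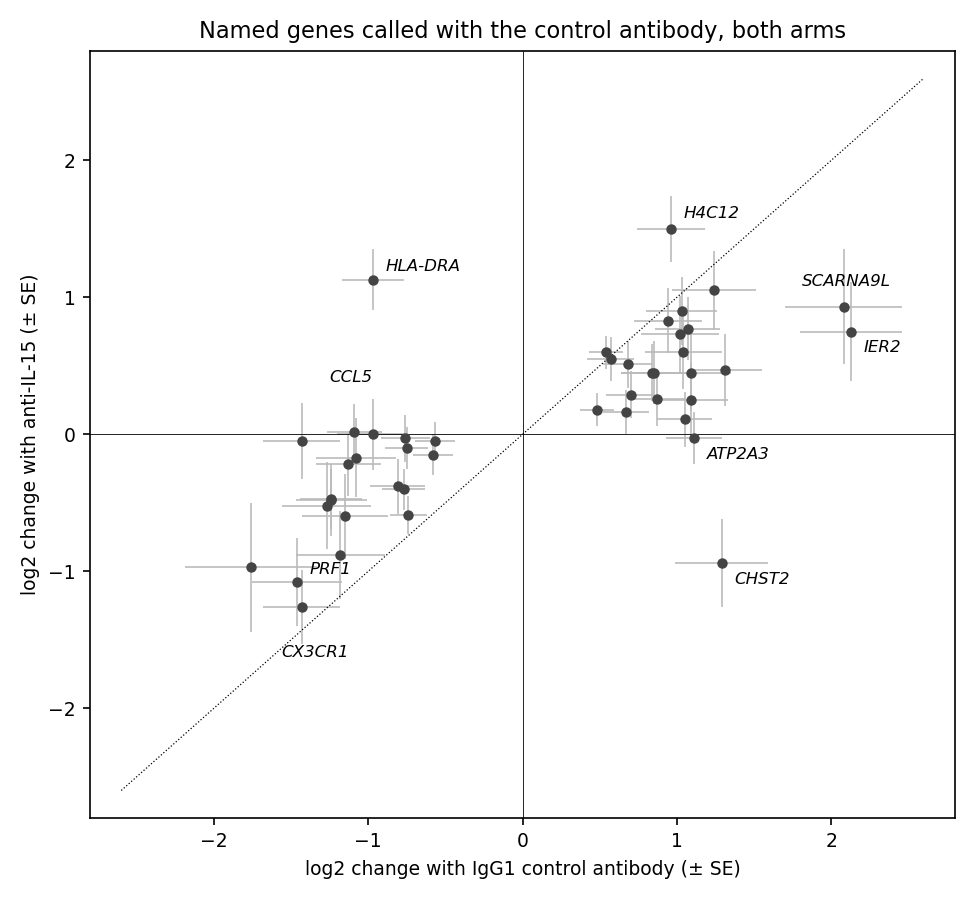
Log2 change with the IgG1 control antibody (x axis) against that with anti-IL-15 (y axis) for the 45 named genes called with IgG1, with bars of 1 SE from the limma fit and a dotted line where both changes are equal. HLA-DRA, at -0.97 and 1.13, and CHST2, at 1.29 and -0.94, lie in the quadrants of opposite sign, while CX3CR1, at -1.43 and -1.26, lies near the line.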

How the data were processed

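Total RNA of sorted CD8+ TEM was measured on Illumina bead arrays after equal RNA input to amplification, per the labels' protocols. A level is thus a share of the RNA and not an amount per cell. The deposited table holds linear intensities, neither background-corrected nor normalised, with a detection p-value for each probe, also deposited. A table of log2 values deposited by the authors was an alternative. Its scale matches log2 signals after quantile normalisation, it was not centred by gene, and the submitters' processing notes name limma (version not given in the sources used here).

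Intensities were corrected and quantile normalised by neqc (limma 3.58.1, R 4.3.3; offset 16), which took its negative controls from the detection p-values. Probes detected (p under 0.05) on 5 or more of 23 arrays were kept, and 9 with a signal of 0 on some array were left out (missing values), which gave 15744 of 47230. Of these 11131 had 1 symbol, 4612 none and 1 several. The brightest probe stood for a gene, which left 9190 genes. Of kept probes without 1 symbol, 68 were called higher and 46 lower in a fit of all probes.

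The fit used all 23 arrays with animal as a block, 1 change per arm and a variance trend (9 residual degrees of freedom), and p-values were adjusted by Benjamini-Hochberg at 0.05. The anti-IL-15 arrays add to the estimate of the spread and not to the IgG1 change. Replicates are separate animals, paired by the donor label, and same-animal arrays deviated together (correlation 0.0515 to 0.513, median 0.331, against -0.0611 between animals). Bounds for probes undetected in a group are against the lowest detected signal.

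Genes named were the 10 largest rises and falls in 6 of 6 animals, up to 4 called genes of each list (or 2 of smallest p), a fixed set of T cell genes and genes called in the difference between arms. Members, lists and this rule were chosen with earlier results of these data known, and 1 list and 2 alternatives after seeing the values. Certain results are not reported here.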

Additional observations from a re-analysis of the deposited data

Results flagged for a closer look

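In 10 of 160 groups of 6 values 1 animal lay far from the other 5, where chance gives about 1 in 20. Animal 3 before IgG1 was the one in 7 of them: it had the lowest CD8A level, 12.73, with the next at 13.32, and the highest levels of LEF1 (5.92, next 5.11), ISG15 (10.75, next 8.58), DTX3L (4.76, next 4.47), E2F1 (6.91, next 6.18), CAMK4 (8.27, next 7.44) and CD79B (8.04, next 5.47). DTX3L was detected on 0 of 6 arrays before IgG1, so its level there was not above background. CFAP210 was highest in animal 1 after IgG1 (4.69), where no array detected it, and TNFRSF4 in animal 4 after IgG1 (5.44). The bright CCR6 probe was highest in animal 2 before IgG1 (13.89).

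HLA-DRA differed between the arms in a test of the difference of the changes, -2.10 for IgG1 minus anti-IL-15.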

How the results depend on the processing

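Against 201 called genes (66 higher, 135 lower), other settings gave 350 with 75th percentile scaling (279 lower), 71 with no filter on detection (15 and 56), 24 for the 12 arrays alone (7 and 17), 868 with the 28S probe as a covariate (367 and 501), 0 with cell number on the log2 scale as another (0 and 0), 105 with no variance trend (39 and 66) and 339 with all kept probes as features (140 higher). With detection on all arrays 134 were higher, and without anti-IL-15 animal 6, a setting added after seeing the data, 128 were. No replicate block gave 23 (6 and 17) and no call in the difference between the arms. That difference gave 2 with no background correction and 2 with the deposited log2 table. Leaving out each animal in turn gave 0 to 367 called genes (0 to 126 higher, 0 to 241 lower) and 1 to 2 in the difference. All 201 genes kept their sign in every setting that measured them, which was in part fixed in advance. The 12 arrays alone, no variance trend and leaving out anti-IL-15 animal 6 do not alter the IgG1 change. Of the 201 genes 155 moved the same way in 6 of 6 animals, so leaving out 1 animal could not turn their sign. The cause of the shifts in the counts was not tested, except that fewer arrays and residual degrees of freedom enter where arrays were left out. BeadChip as a block was not run, since the file headers give no chip. The blocked fit is the one reported, because the donor label pairs the arrays. Signals near the detection limit bound the falls of dim genes.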
